A study of Homo sapiens with 12 samples.

Results

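The 8 genes described here sense cellular sterols, move them, or control the uptake of lipoproteins: INSIG1, INSIG2, SREBF1, SREBF2, SCAP, MYLIP, STARD4 and ABCA1. They were chosen by their symbols, and all 8 were found among the 19901 genes of the count table and passed the filter on low counts, which kept 13093 genes. Earlier results of these same libraries were known when they were chosen, and INSIG1 had been selected on its values in the comparison of serum effects between treatments. The values of INSIG1 are therefore given as a description, with no p-value. The p-values of the other 7 genes come from the fit over all genes and were not corrected for that choice.

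Cells match their cholesterol supply to their need through the sterol regulatory element-binding proteins (SREBPs), transcription factors that are made as membrane proteins of the endoplasmic reticulum. SCAP escorts the SREBPs to the Golgi, where proteases release their active part, and INSIG proteins hold SCAP back in the endoplasmic reticulum when sterols are plentiful. Active SREBP then raises genes for cholesterol synthesis, fatty acid synthesis and lipoprotein uptake, and INSIG1 itself is one of its targets. Liver X receptors (LXRs) act in the opposite direction: they respond to oxysterols and raise genes such as ABCA1 and MYLIP that export cholesterol or limit its uptake.

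RNA-Seq profiled HCT116 KAP1-dTAG cells. HCT116 is a colorectal carcinoma line of human origin, and in these cells both alleles of the gene for KAP1 (TRIM28) end in an FKBP12-F36V degron, so that the ligand dTAG sends the KAP1 protein for degradation. All cells came from 1 clone (D5) that was sorted as a single cell, all carried the tag and all were kept without serum for 48 h, with dTAG or the vehicle DMSO present for the last 8 h. The 12 libraries fell into 4 groups of 3 biological replicates. DMSO-S0 and dTAG-S0 received the vehicle or the ligand and stayed without serum, and DMSO-S30 and dTAG-S30 received the same and then serum for 30 min. The study's question was how acute KAP1 depletion alters the transcriptional response to serum, and the groups allow the serum effect to be read under each treatment, the dTAG effect to be read with and without serum, and the difference between the serum effects (the interaction) to be tested.

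Total counts ranged from 20537682 to 26278707 per library, and the spike-in transcripts took 7.97% to 9.37% of them. The transcript of TRIM28 was 85.5 to 120.4 normalised CPM (read counts scaled to the size of each library), and since the tag removes the protein, this level checks nothing about the depletion. Of 6 epithelial markers, EPCAM, CDH1, KRT8, KRT18 and KRT19 were present at 79.1 CPM or more in every library, and CEACAM5 was at 0 counts in all 12. Of 7 markers of other cell types, 6 reached at most 35 counts in any library, while COL1A1, a fibroblast collagen gene, ranged from 11.8 to 85.5 CPM and was higher with serum.

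The control regions of these genes are shown because SREBPs and their partner NF-Y act through short DNA motifs. The windows are the 250 bases before the RefSeq transcription start on GRCh38.p14, and all 8 genes had one. These starts differ from the bounds of the counted genes given below. Each of the 4 windows printed reaches partly into its counted gene, and the window of SCAP lies wholly inside it. Capitals mark matches to the sterol regulatory element TCACNCCAC, the NF-Y box CCAAT and the E-box CACGTG, each searched on both strands. The 4 windows printed are those of the genes whose values are described at most length below, in order INSIG1 (chr7:155297628-155297877, plus strand), SREBF2 (chr22:41832855-41833104, plus), STARD4 (chr5:111512536-111512785, minus) and ABCA1 (chr9:104928156-104928405, minus).
INSIG1: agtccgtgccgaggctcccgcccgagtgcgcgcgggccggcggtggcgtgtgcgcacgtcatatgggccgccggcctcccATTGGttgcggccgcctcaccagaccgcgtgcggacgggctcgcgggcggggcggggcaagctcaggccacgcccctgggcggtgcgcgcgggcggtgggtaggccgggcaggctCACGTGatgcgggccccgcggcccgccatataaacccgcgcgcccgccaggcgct
SREBF2: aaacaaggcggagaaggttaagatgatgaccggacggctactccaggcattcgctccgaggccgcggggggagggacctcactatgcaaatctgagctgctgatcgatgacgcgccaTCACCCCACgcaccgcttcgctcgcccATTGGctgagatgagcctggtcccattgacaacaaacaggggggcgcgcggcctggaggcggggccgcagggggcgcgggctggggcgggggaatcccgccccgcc
STARD4: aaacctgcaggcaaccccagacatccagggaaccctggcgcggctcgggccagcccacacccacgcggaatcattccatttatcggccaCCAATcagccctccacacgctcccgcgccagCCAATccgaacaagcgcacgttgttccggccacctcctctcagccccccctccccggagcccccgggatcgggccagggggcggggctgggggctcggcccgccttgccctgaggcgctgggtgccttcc
ABCA1: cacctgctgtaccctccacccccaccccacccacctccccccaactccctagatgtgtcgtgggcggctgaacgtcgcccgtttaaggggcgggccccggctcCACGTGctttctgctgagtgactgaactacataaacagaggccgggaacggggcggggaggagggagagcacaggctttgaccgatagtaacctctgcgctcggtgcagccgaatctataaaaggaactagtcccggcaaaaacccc

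The sterol regulatory element was found in 1 of the 8 genes, SREBF2, at 133 to 125 bases before the start, and in 0.883% of 35116 windows of the same length. The NF-Y box was found in 4 of the 8 genes and in 32.0% of all windows. STARD4 held it at 161 to 157 and at 130 to 126 bases before the start, INSIG1 at 170 to 166, SREBF2 at 106 to 102, and MYLIP at 109 to 105 and 68 to 64. The E-box was found in 3 of the 8, INSIG1 (55 to 50 bases before the start), SCAP (58 to 53) and ABCA1 (147 to 142), and in 6.34% of all windows. The windows of INSIG2 and SREBF1 held none of the 3 motifs, and no matches overlapped each other. A match describes the letters of a window and is not a measurement of binding. Only exact matches within these windows were searched, so variant or more distant elements would be missed. No LXR element was searched.

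SREBF2 and SREBF1 each carry a microRNA gene in an intron, MIR33A and MIR33B, whose products are known to act on ABCA1 and are shown for that reason with the seed (bases 2 to 8) in capitals. The mature sequences share this seed. The microRNAs themselves were not measured here.
hsa-miR-33a-5p: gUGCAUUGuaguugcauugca
hsa-miR-33b-5p: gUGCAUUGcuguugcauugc

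The 8 genes lie on 8 different chromosomes, and the counts cover whole genes with their introns (hg38). INSIG1 (ENSG00000186480.12) spans chr7:155297776-155310235 on the plus strand, 12460 bp, of which 29.3% is exonic in GENCODE v44. INSIG2 (ENSG00000125629.14) spans chr2:118088452-118110997 on the plus strand, 22546 bp. SREBF1 (ENSG00000072310.16) spans chr17:17810399-17837002 on the minus strand, 26604 bp, and 3.97% of it overlaps RAI1 on the other strand. SREBF2 (ENSG00000198911.11) spans chr22:41833079-41907308 on the plus strand, 74230 bp, and SCAP (ENSG00000114650.18) chr3:47413694-47477126 on the minus strand, 63433 bp. MYLIP (ENSG00000007944.14) spans chr6:16129125-16148248 on the plus strand, 19124 bp. STARD4 (ENSG00000164211.12) spans chr5:111496033-111512590 on the minus strand, 16558 bp, and 13.3% of it overlaps STARD4-AS1 on the other strand. ABCA1 (ENSG00000165029.15) spans chr9:104781002-104928237 on the minus strand, 147236 bp, of which 7.70% is exonic. Whether the counting used strand is not given in the sources used here, so reads from STARD4 and its antisense partner, or from SREBF1 and RAI1, may not have been told apart.

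INSIG1 was the gene of the 8 that moved furthest with serum, and STARD4 was called higher with dTAG both without and with serum. ABCA1, at 13 to 38 counts per library, was lower with dTAG at each serum state without passing the test. In DMSO-treated cells, 3 of the 8 genes (INSIG1, SREBF1 and STARD4) were called with serum, each higher, where 26.3% of all genes tested were called, 9.18% higher and 17.1% lower. In dTAG-treated cells, 3 of the 8 (INSIG1, SREBF1 and SREBF2) were called, each higher, where 24.5% of all genes were called, 9.09% higher and 15.4% lower. With dTAG and no serum, 2 of the 8 (INSIG1 and STARD4) were called, each higher, where 1.31% of all genes were called, 0.855% higher and 0.451% lower. With dTAG and serum, 1 of the 8 (STARD4) was called, higher, where 1.23% of all genes were called, 0.596% higher and 0.634% lower. In the interaction, 1 of the 8 (INSIG1) was called, lower, where 0.0382% of all genes were called (5 genes, each lower). INSIG1 was selected on this comparison, so this count was fixed by that choice and is not a result about the 8 genes. INSIG1 also enters the counts for both serum comparisons and for dTAG without serum. Those comparisons share groups with the interaction, so its calls there are not independent of that choice. Apart from INSIG1, STARD4 was the sole call of the 8 for dTAG without serum.

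A call here is an adjusted p under 0.05 in edgeR's quasi-likelihood test, and nothing is read from the counts that INSIG1 enters beyond its values. Where libraries of different groups are said to lie apart or to overlap, this is a description. The share of all genes tested whose libraries lie apart was not computed. The median log2 fold change of the 8 genes was 0.12 for serum in DMSO-treated cells, against -0.07 over all genes tested, and 0.02 against -0.06 in dTAG-treated cells. For dTAG it was 0.05 without serum and 0.09 with serum, against -0.01 and 0.00 over all genes. The comparisons are not independent: serum in DMSO-treated cells and dTAG without serum share the DMSO-S0 libraries, and the other comparisons share groups in the same way. In bulk samples such as these, fewer cells with a transcript and less of it per cell cannot be told apart.

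**Figure D1:**
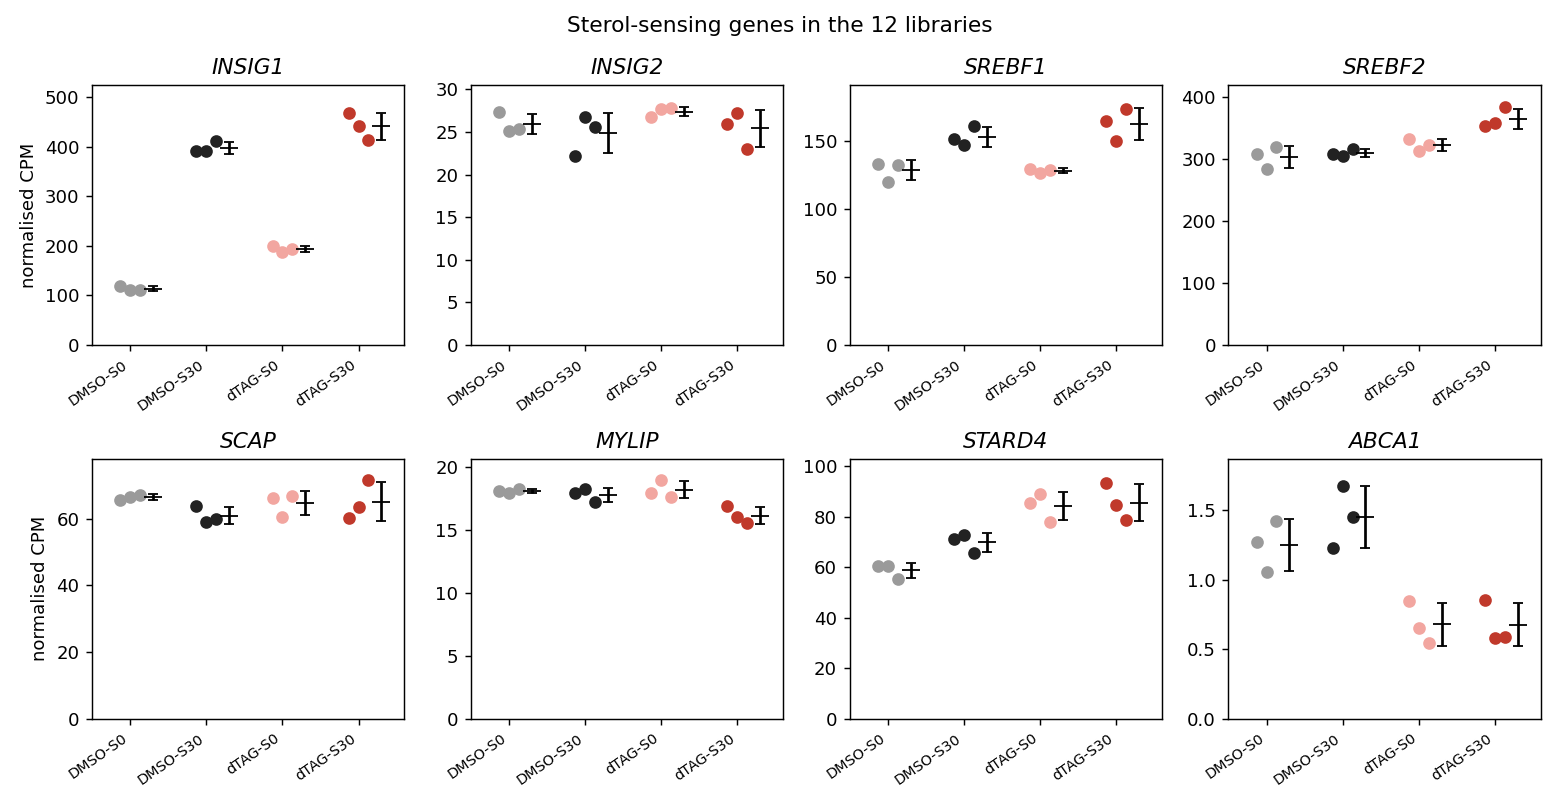
Normalised CPM of the 8 genes, 1 panel each, with the 3 libraries of each group as points in replicate order and the mean with its SD beside them; every vertical axis starts at 0. INSIG1 rises from 110.2 to 119.8 in DMSO-S0 to 390.4 to 411 in DMSO-S30, STARD4 is higher in the dTAG groups, and ABCA1 is near 1 CPM in every group.

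INSIG1 encodes the sterol-regulated anchor that retains SCAP in the endoplasmic reticulum. Its level was 119.8, 111 and 110.2 normalised CPM in DMSO-S0 (replicates 1, 2 and 3) and 390.4, 391 and 411 in DMSO-S30. In the dTAG-treated cells it was 199.8, 187 and 194 without serum and 467, 442 and 413 with serum. Each of the 4 groups was apart from the others, with the DMSO-S0 libraries lowest and the dTAG-S30 libraries highest, and the highest DMSO-S30 library was just under the lowest dTAG-S30 library.

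The fitted serum effect on INSIG1 was a log2 fold change of 1.81 (SE 0.0641, 95% interval 1.68 to 1.94) in DMSO-treated cells, or 3.50-fold. In dTAG-treated cells it was 1.18 (SE 0.0601, 1.06 to 1.31), or 2.27-fold. The difference between both serum effects was -0.62 (SE 0.0885, -0.81 to -0.44) on the log2 scale. Read between treatments, dTAG against DMSO was 0.77 (SE 0.0618, 0.64 to 0.90), or 1.71-fold, without serum and 0.15 (SE 0.0602, 0.02 to 0.27), or 1.11-fold, with serum. The gap between these dTAG values is the same -0.62, taken from the same groups, and is no second result. When each library was left out in turn, the dTAG value with serum ranged from 0.09 (without dTAG-S30 replicate 1) to 0.19.

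INSIG2 encodes the second INSIG protein, which binds SCAP in the same way but is not known as a strong SREBP target. Its level was 27.3, 25.1 and 25.4 CPM in DMSO-S0, 22.2, 26.7 and 25.6 in DMSO-S30, 26.8, 27.7 and 27.8 in dTAG-S0, and 25.99, 27.3 and 23.1 in dTAG-S30. The groups overlapped in all 4 pairwise comparisons. The log2 fold change for serum was -0.03 (95% interval -0.21 to 0.14, edgeR adjusted p = 0.826) in DMSO-treated cells, and its sign turned with another scaling. For dTAG without serum it was 0.10 (-0.07 to 0.27, edgeR adjusted p = 0.695), so that a change of the size seen in INSIG1 lay outside both intervals. Per kb of counted length, the ratio of INSIG1 to INSIG2 went from 7.94 in DMSO-S0 to 28.9 in DMSO-S30, and from 12.8 in dTAG-S0 to 31.3 in dTAG-S30.

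SREBF1 encodes SREBP-1, the SREBP best known for driving fatty acid synthesis genes. Its level was 133, 119.8 and 132 CPM in DMSO-S0 and 151, 147 and 161 in DMSO-S30. In dTAG-treated cells it was 129.5, 126 and 128 without serum and 164, 150.2 and 173 with serum. The serum libraries lay above the serum-free libraries under each treatment, while DMSO and dTAG overlapped at each serum state. SREBF1 rose with serum by a log2 fold change of 0.26 (SE 0.0634, edgeR adjusted p = 0.00287), or 1.20-fold, in DMSO-treated cells, and by 0.34 (SE 0.0614, edgeR adjusted p = 0.000185), or 1.26-fold, in dTAG-treated cells. Both calls held under each alternative setting and without each library in turn. For dTAG the log2 fold change was 0.00 (95% interval -0.12 to 0.13) without serum and 0.08 (-0.05 to 0.21) with serum.

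SREBF2 encodes SREBP-2, the SREBP that drives cholesterol synthesis genes, and its window holds the sterol regulatory element printed above. Its level was 307, 284 and 319 CPM in DMSO-S0, 308, 304 and 316 in DMSO-S30, 332, 312 and 323 in dTAG-S0, and 353, 358 and 383 in dTAG-S30. The dTAG-S30 libraries lay above those of every other group, while DMSO-S0 and DMSO-S30 overlapped. Serum raised SREBF2 in dTAG-treated cells by a log2 fold change of 0.17 (SE 0.0588, 95% interval 0.05 to 0.30, edgeR adjusted p = 0.0314), or 1.13-fold. This call was lost without dTAG-S0 replicate 2 (0.15, edgeR adjusted p = 0.120), without dTAG-S30 replicate 3 (0.13, edgeR adjusted p = 0.115) and with library sizes taken from the spike-ins (0.21, edgeR adjusted p = 0.0704). In DMSO-treated cells the serum effect was 0.03 (-0.09 to 0.16, edgeR adjusted p = 0.716), and the difference between both effects was 0.14 (-0.04 to 0.32).

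For dTAG with serum the log2 fold change of SREBF2 was 0.23 (SE 0.0602, 0.11 to 0.36), or 1.17-fold, and missed the threshold (edgeR adjusted p = 0.0578). It passed under 6 alternative settings, among them DESeq2 (0.23, adjusted p = 0.00135) and a fit of only the libraries compared (0.24, edgeR adjusted p = 0.0119). Without serum it was 0.09 (-0.03 to 0.21, edgeR adjusted p = 0.594).

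SCAP, the escort that senses membrane cholesterol, was 65.6, 66.6 and 67.2 CPM in DMSO-S0 and 63.7, 58.9 and 59.9 in DMSO-S30. In dTAG-treated cells it was 66.3, 60.4 and 66.9 without serum and 60.2, 63.5 and 71.5 with serum. The DMSO-S30 libraries lay below those of DMSO-S0, and the dTAG groups overlapped each other. The serum effect in DMSO-treated cells was -0.13 on the log2 scale (95% interval -0.27 to 0.02, edgeR adjusted p = 0.188), and that of dTAG was -0.04 (-0.18 to 0.10) without serum and 0.10 with serum (edgeR adjusted p = 0.868 and 0.702).

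MYLIP, also called IDOL, is an LXR-induced ubiquitin ligase that marks lipoprotein receptors for degradation. Its level was 18.1, 17.9 and 18.3 CPM in DMSO-S0, 17.97, 18.3 and 17.2 in DMSO-S30, 17.96, 18.96 and 17.7 in dTAG-S0, and 16.9, 16.0 and 15.5 in dTAG-S30. The 3 dTAG-S30 libraries were the lowest of the 12. The difference did not pass the test against dTAG-S0 (log2 fold change -0.17, 95% interval -0.34 to 0.00, edgeR adjusted p = 0.150) or against DMSO-S30 (-0.13, -0.31 to 0.04, edgeR adjusted p = 0.641). MYLIP rested on 341 to 438 counts per library.

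STARD4 encodes a soluble sterol carrier between membranes and is a known SREBP-2 target; its window holds a pair of NF-Y boxes. Its level was 60.4, 60.5 and 55.3 CPM in DMSO-S0 and 71.1, 72.6 and 65.5 in DMSO-S30. In dTAG-treated cells it was 85.2, 88.8 and 78.0 without serum and 93.4, 84.7 and 78.6 with serum. The dTAG libraries lay above the DMSO libraries at each serum state, whereas dTAG-S0 and dTAG-S30 overlapped.

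With dTAG and no serum, STARD4 rose by a log2 fold change of 0.51 (SE 0.0712, 95% interval 0.36 to 0.66, edgeR adjusted p = 9.26e-05), or 1.42-fold, and the call held under each alternative setting and without each library in turn. With serum it rose by 0.30 (SE 0.0713, 0.16 to 0.45, edgeR adjusted p = 0.0262), or 1.23-fold. The call with serum was lost with spike-in library sizes (0.30, edgeR adjusted p = 0.221), and without DMSO-S30 replicate 3 (0.26, edgeR adjusted p = 0.222), dTAG-S30 replicate 1 (0.22, edgeR adjusted p = 0.134) or dTAG-S30 replicate 2 (0.31, edgeR adjusted p = 0.0649). Serum raised STARD4 in DMSO-treated cells by 0.24 (SE 0.0736, 0.09 to 0.39, edgeR adjusted p = 0.0176), or 1.18-fold. That call was lost without DMSO-S0 replicate 3 (0.13, edgeR adjusted p = 0.203) or DMSO-S30 replicate 2 (0.19, edgeR adjusted p = 0.106). In dTAG-treated cells the serum effect was 0.03 (-0.11 to 0.17, edgeR adjusted p = 0.785), and the difference between both serum effects was -0.21 (SE 0.103, -0.42 to 0.01), with an edgeR adjusted p of 0.9999.

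ABCA1 encodes the transporter that hands cholesterol and phospholipid to apolipoproteins, and is a classical LXR target. It was barely expressed: the libraries held 24, 23 and 29 counts in DMSO-S0, 25, 38 and 30 in DMSO-S30, 18, 15 and 13 in dTAG-S0, and 19, 13 and 13 in dTAG-S30. In normalised CPM this was 1.27, 1.05 and 1.42 in DMSO-S0, 1.23, 1.67 and 1.45 in DMSO-S30, 0.846, 0.649 and 0.541 in dTAG-S0, and 0.853, 0.581 and 0.589 in dTAG-S30. The highest of the 6 dTAG libraries (0.853 CPM) was below the lowest of the 6 DMSO libraries (1.05 CPM).

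The log2 fold change of ABCA1 for dTAG was -0.89 (SE 0.311, 95% interval -1.53 to -0.25) without serum and -1.09 (SE 0.307, -1.73 to -0.47) with serum. Neither passed the adjustment over all genes (edgeR adjusted p = 0.199 and 0.0867). With serum it passed with no factor of unwanted variation (-1.10, edgeR adjusted p = 0.0458), with the likelihood ratio test (-1.09, edgeR adjusted p = 0.0130) and in a fit of only the libraries compared (-1.09, edgeR adjusted p = 0.0371), and DESeq2 gave it no adjusted p. The serum effect was 0.21 (-0.36 to 0.79) in DMSO-treated cells and 0.01 (-0.70 to 0.72) in dTAG-treated cells, intervals that hold changes of more than 1.5-fold either way in the second case, so that a serum effect was not detectable at this depth.

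**Figure D2:**
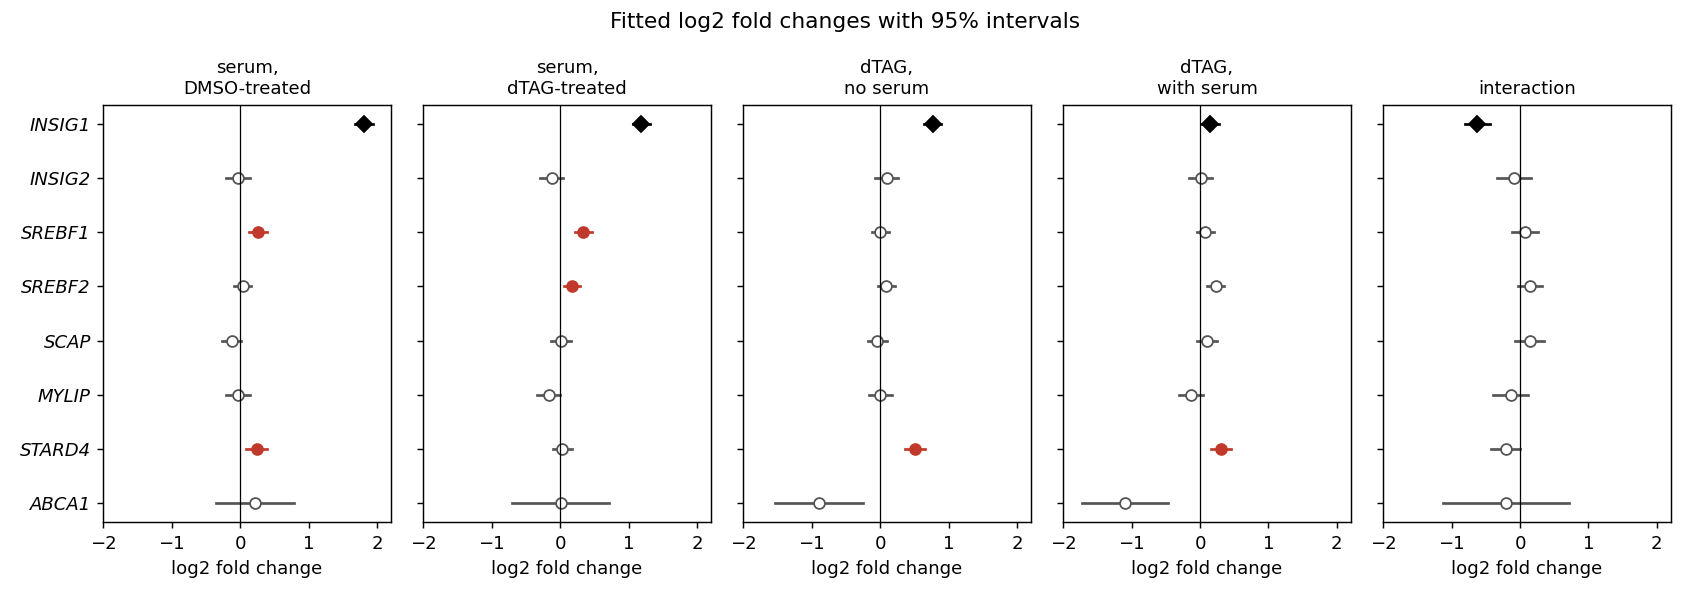
Fitted log2 fold change (horizontal axis) of each of the 8 genes in the 5 comparisons, with lines for the 95% intervals. Filled red circles passed an adjusted p of 0.05, open circles did not, and the black diamonds of INSIG1 are shown without a test; STARD4 is filled in both dTAG panels (0.51 and 0.30), SREBF1 in both serum panels (0.26 and 0.34), and the intervals of ABCA1 are the widest.

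Compared per kb of counted length, the mean level in DMSO-S0 ran from INSIG1 (9.13 CPM per kb) through SREBF1 (4.82), SREBF2 (4.09), STARD4 (3.55), INSIG2 (1.15), SCAP (1.05) and MYLIP (0.946) down to ABCA1 (0.00849), and the libraries of no neighbouring pair overlapped. With serum, INSIG1 stood at 31.9 CPM per kb in DMSO-S30 and 35.4 in dTAG-S30 and again came first. In dTAG-S0 STARD4 (5.07 CPM per kb) stood above SREBF1 (4.81), and their libraries overlapped. STARD4 and SREBF2 overlapped in DMSO-S30 (4.21 and 4.17 CPM per kb) and in dTAG-S30 (5.17 and 4.91). INSIG2 and SCAP overlapped in the same 2 groups, and SCAP and MYLIP in DMSO-S30 and dTAG-S0. ABCA1 was last in each group, at 0.00985 CPM per kb in DMSO-S30, 0.00461 in dTAG-S0 and 0.00458 in dTAG-S30. These levels average introns with exons, and the exonic share differs between the genes.

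**Figure D3:**
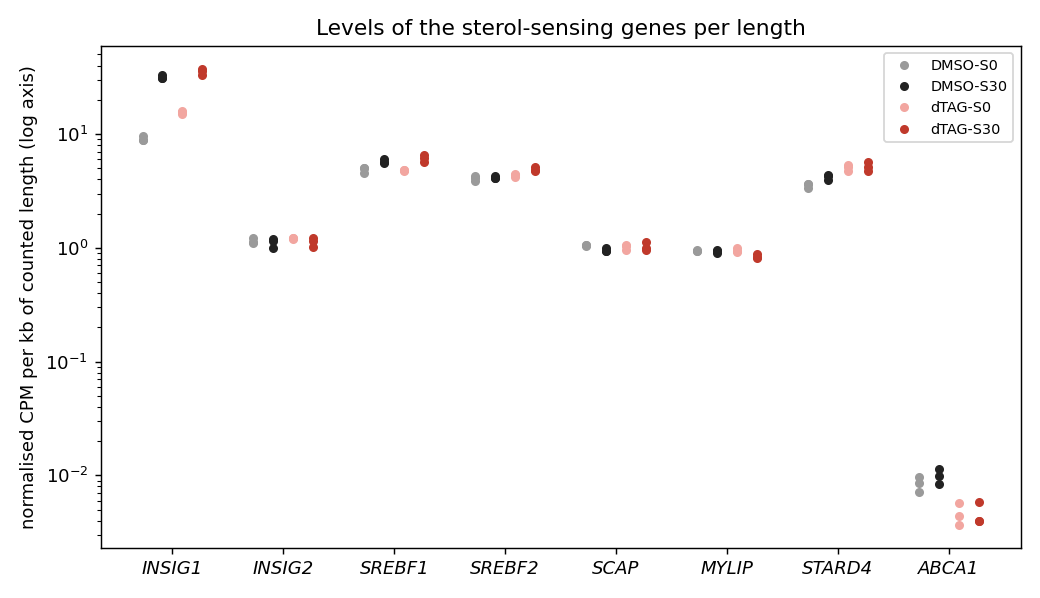
Normalised CPM per kb of counted length (log axis) of the 8 genes, with each library as a point coloured by group. INSIG1 lies highest in every group, from 9.13 CPM per kb on average in DMSO-S0 to 35.4 in dTAG-S30, and ABCA1 lowest, at 0.00985 or less.

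Across the 12 libraries, log2 CPM of INSIG1 and SREBF1 had a Pearson's r of 0.86, that of INSIG1 and STARD4 0.57, that of SREBF2 and MYLIP -0.83, and that of STARD4 and ABCA1 -0.68. These values describe the 12 libraries, which share the 4 groups, and carry no test. The genes whose log2 CPM followed that of INSIG1 most closely over the same libraries included CXCL8 (r = 0.99), NT5E (0.99), NFIL3 (0.98) and B3GNT2 (0.98).

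The other genes of the pathway set the background for these values, in lists chosen by function. Of 21 enzymes from acetoacetyl-CoA to cholesterol, 20 were tested, and with dTAG 16 were called without serum and 15 with serum, each of them higher. Of all genes tested, 0.855% and 0.596% were called higher. The medians of the enzymes were 0.48 and 0.37 on the log2 scale. With serum 1 enzyme was lower, at -0.21, with an unadjusted edgeR p under 0.05, and was not called. MVD, the last decarboxylase of the mevalonate pathway, rose by 0.72 without serum (SE 0.0670, edgeR adjusted p = 1.12e-07) and by 0.59 with serum (SE 0.0660, edgeR adjusted p = 4.03e-06). DHCR7, the final reductase of cholesterol synthesis, rose by 0.68 and 0.66 (edgeR adjusted p = 2.43e-07 and 1.20e-06). HMGCS1, which makes the substrate of the rate-limiting reductase, rose by 0.61 without serum (edgeR adjusted p = 1.20e-06), and LSS, the cyclase that forms lanosterol, by 0.57 with serum (edgeR adjusted p = 2.11e-06). The log2 fold change of STARD4 for dTAG without serum (0.51) lay near this median, and that of SREBF2 (0.09) below it.

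Of 10 genes of fatty acid synthesis, 8 were called with dTAG without serum and 8 with serum, each higher, with medians of 0.35 and 0.40. Over all genes tested, 0.855% and 0.596% were called higher. ACSS2, which makes acetyl-CoA from acetate, rose by 0.76 in both (edgeR adjusted p = 5.55e-08 and 3.88e-07). LPIN1, a phosphatidate phosphatase, rose by 0.71 and 0.67 (edgeR adjusted p = 2.82e-08 and 3.88e-07), and SCD, the stearoyl-CoA desaturase, by 0.62 and 0.67 (edgeR adjusted p = 1.85e-05 and 9.05e-06).

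Serum also moved genes of these lists. Of the cholesterol enzymes, 7 of 20 were called in DMSO-treated and 6 in dTAG-treated cells, each higher, where 9.18% and 9.09% of all genes were called higher. Their medians were 0.10 and 0.08, or 0.17 and 0.14 with TMM scaling, and that in dTAG-treated cells was 0.038 without dTAG-S0 replicate 2. IDI1, the isopentenyl diphosphate isomerase, rose by 0.66 and 0.51 (edgeR adjusted p = 8.77e-08 and 3.53e-06), and MVD by 0.49 and 0.36 (edgeR adjusted p = 5.45e-06 and 0.000149). Of the 10 fatty acid genes, 1 was called higher and 2 lower under each treatment, a share near that of all genes (26.3% and 24.5%). The higher count was 1 to 3 in DMSO-treated cells and 0 to 4 in dTAG-treated cells over the other settings and libraries left out, with 3 in both under TMM scaling and DESeq2. In DMSO-treated cells leaving out DMSO-S0 replicate 3 gave 3, and leaving out DMSO-S0 replicate 1, dTAG-S0 replicate 1 or dTAG-S30 replicate 3 gave 2. In dTAG-treated cells it was 0 without dTAG-S0 replicate 2, 3 without DMSO-S0 replicates 2 or 3 or dTAG-S0 replicate 3, and 2 without DMSO-S0 replicate 1, DMSO-S30 replicate 1 or dTAG-S0 replicate 1. GPAM, the first acyltransferase of glycerolipid synthesis, fell by 0.31 in DMSO-treated and by 0.51 in dTAG-treated cells (edgeR adjusted p = 0.00307 and 5.19e-06), and LPIN1 fell by 0.24 and 0.28 (edgeR adjusted p = 0.00698 and 0.000710). In contrast, FADS1 rose by 0.20 in DMSO-treated cells and FASN by 0.31 in dTAG-treated cells (edgeR adjusted p = 0.0134 and 0.00643). The 2 lower calls in DMSO-treated cells became 1 with TMM scaling and 0 with spike-in library sizes. The serum libraries also had a higher summed level of the 7 markers of other cell types, 81.8 to 87.4 CPM in DMSO-S30 against 15.6 to 18.1 in DMSO-S0 and 68.6 to 79.3 in dTAG-S30 against 13.4 to 16.4 in dTAG-S0, almost all of it COL1A1. The 6 epithelial markers summed to 1309 to 1404 CPM in DMSO-S30 against 1141 to 1193 in DMSO-S0. The part of these shifts in the serum results was not tested.

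Of 13 other genes of SREBP processing and of sterol-regulated protein degradation, all tested, 2 were called higher and 2 lower with serum in DMSO-treated cells, and 2 higher and 1 lower in dTAG-treated cells. These shares are near those of all genes called (26.3% and 24.5%), and the 2 higher calls in dTAG-treated cells became 1 in 7 of 20 other fits, which were spike-in library sizes and those without DMSO-S30 replicates 2 or 3, dTAG-S0 replicates 1 or 2, or dTAG-S30 replicates 1 or 2. In DMSO-treated cells they became 1 in 4 of 20, those without DMSO-S0 replicates 1 or 3 or DMSO-S30 replicates 2 or 3. RNF139, an ubiquitin ligase of the endoplasmic reticulum that binds INSIG proteins, rose by 0.45 and 0.36 (edgeR adjusted p = 1.27e-05 and 0.000233). RNF145, another INSIG-binding ligase, fell by 0.21 in DMSO-treated cells (edgeR adjusted p = 0.0130), and ERLIN1 fell by 0.22 in dTAG-treated cells (edgeR adjusted p = 0.0226), calls that TMM scaling, spike-in library sizes and DESeq2 did not make. TMEM97, a sterol-responsive membrane protein, rose by 0.27 with dTAG without serum (edgeR adjusted p = 0.0280), a call lost without DMSO-S0 replicate 3, dTAG-S0 replicate 1 or dTAG-S0 replicate 3. It was the sole call of the list for dTAG, with 3 genes at an unadjusted p under 0.05 at each serum state, each higher; DESeq2 called 1 gene without and 0 with serum.

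Of 11 LXR receptors, partners and targets other than ABCA1 and MYLIP, 10 were tested. NR1H3, which encodes LXR-alpha, fell with serum by 0.38 and 0.42 (edgeR adjusted p = 0.00435 and 0.00162), the sole call of the list for serum; in dTAG-treated cells it was not made with spike-in library sizes. SCARB1, the receptor for high-density lipoprotein, rose with dTAG in serum-treated cells by 0.32 (edgeR adjusted p = 0.00419), a call that was not made with spike-in library sizes or without DMSO-S30 replicate 2. Without serum edgeR called 0 genes of the list for dTAG, with 3 at an unadjusted p under 0.05, and DESeq2 called 1. ABCG1, a cholesterol transporter of the same family as ABCA1 that is named here after its values were seen, was at -0.39 without and -0.37 with serum (edgeR adjusted p = 0.353 and 0.483). For dTAG, 3 of the 10 values lay above 0 without serum and 2 with serum. The median of the list was -0.09 without serum, -0.14 without DMSO-S0 replicate 2 or replicate 3, and -0.07 with serum, -0.011 without DMSO-S30 replicate 3.

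Of 16 genes of lipoprotein uptake and intracellular sterol transport, 15 were tested. NPC1, which exports cholesterol from lysosomes, rose with serum by 1.29 under each treatment (edgeR adjusted p = 9.80e-15 and 4.57e-15), from 94.4 ± 3.07 to 229.9 ± 12.8 CPM (SD, n = 3) in DMSO-treated cells. The difference between its serum effects was -0.00445 (SE 0.0929). With dTAG, 2 genes were called higher at each serum state, where 0.855% and 0.596% of all genes were called higher without and with serum. NPC1 rose by 0.27 and 0.26 (edgeR adjusted p = 0.0305 and 0.0301). LRP8, a lipoprotein receptor of the same family as the receptors that MYLIP marks, rose by 0.25 and 0.33 (edgeR adjusted p = 0.0187 and 0.00151). For serum in DMSO-treated cells the list had 2 genes called higher and 3 lower, where 26.3% of all genes were called, and the 3 lower calls became 1 with TMM scaling and 0 with spike-in library sizes. Among them LRP1 fell by 0.32 (edgeR adjusted p = 0.00115). In dTAG-treated cells NPC1 was the sole call, and LRP1 was at 0.03 (edgeR adjusted p = 0.791). With dTAG and no serum LRP1 was at -0.26 (edgeR adjusted p = 0.0546), and 1 gene of the list was called lower in 7 of 20 other fits. The 2 calls for dTAG were not made with spike-in library sizes, and the count was 1 without DMSO-S0 replicate 2, dTAG-S0 replicate 1 or dTAG-S0 replicate 3 (no serum), and without DMSO-S30 replicate 2 or dTAG-S30 replicate 1 (serum).

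In the interaction, edgeR and DESeq2 each called 0 genes of the 5 lists, and 1 was at an unadjusted p under 0.05, in the list of uptake and transport. Of the 8 sterol-sensing genes, INSIG2, SREBF1, SREBF2, SCAP, MYLIP, STARD4 and ABCA1 had interaction values between -0.21 and 0.14 on the log2 scale, all with an edgeR adjusted p of 0.9999. INSIG1, at -0.62, was selected on this comparison, so its distance from these genes is not a result. The median over the cholesterol enzymes was -0.06.

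**Figure D4:**
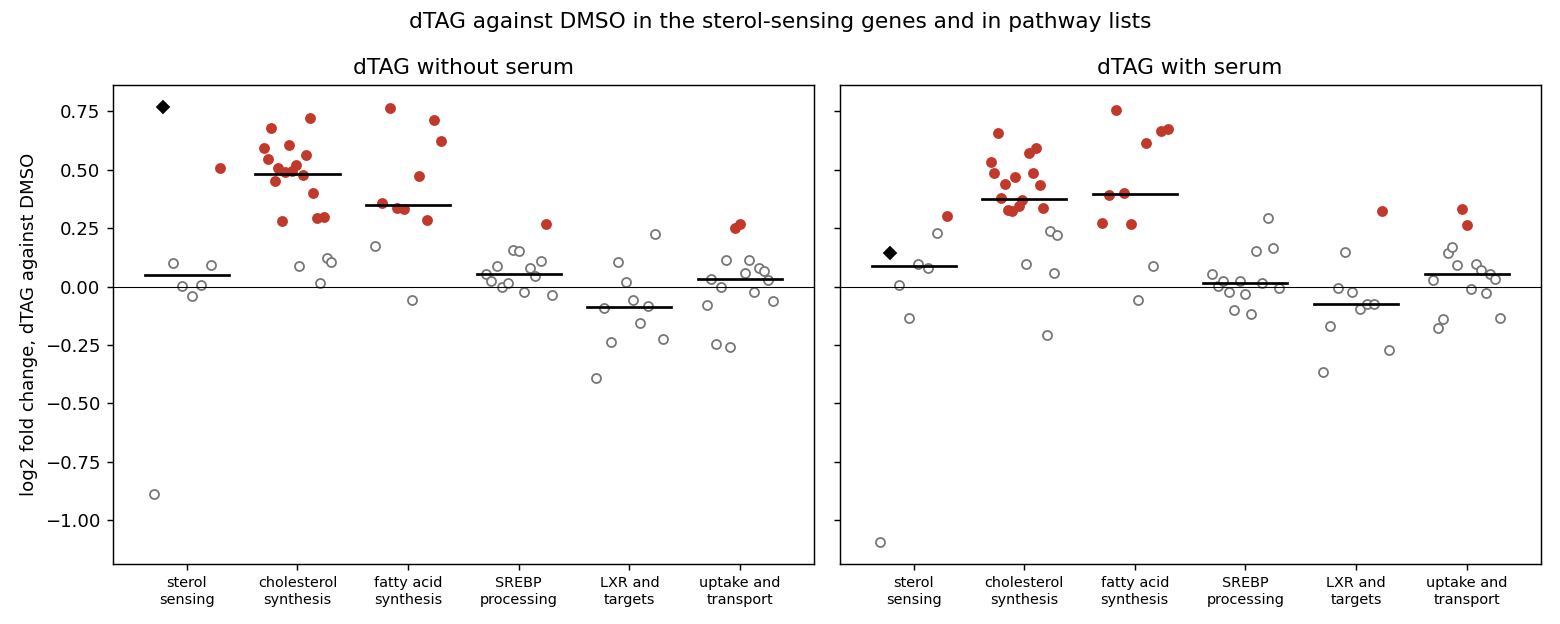
Log2 fold change of dTAG against DMSO (vertical axis) for the 8 sterol-sensing genes and the 5 pathway lists, without serum (left) and with serum (right), with each gene as a point and the median as a bar. Filled red circles passed an adjusted p of 0.05, open circles did not, and the black diamond is INSIG1, shown without a test; 16 and 15 of 20 cholesterol enzymes are filled, with medians of 0.48 and 0.37, and the lowest open circles on the left of each panel are ABCA1 (-0.89 and -1.09).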

How the data were processed

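RNA from HCT116 KAP1-dTAG cells was depleted of ribosomal RNA, received ERCC spike-ins and was sequenced. Per the methods, the authors trimmed reads with Trim Galore 0.6.4, mapped them to hg38 with STAR and counted them with featureCounts (Subread 1.6.3) over entire protein-coding genes, introns included; the values they deposited are raw, unscaled counts for genes and for ERCC transcripts. The strand setting, the treatment of reads with several mapping places and the annotation version are not given in the sources used here. Intronic reads add unspliced RNA to each value.

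A gene was tested if 6 or more of the 12 libraries held 10 or more counts of it (13093 of 19901; 69 of 92 ERCC transcripts passed). Libraries were scaled by their upper quartile, 1 RUVg factor of unwanted variation was estimated on the ERCC transcripts, and a model with the 4 groups and this factor was fitted in edgeR 4.0.16 (R 4.3.3) with the two-sided quasi-likelihood F-test, Benjamini-Hochberg adjusted over all genes tested. Normalised CPM are counts per scaled library size and are not corrected by the factor, whereas log2 fold changes are. How many factors the study took is not given in the sources used here. P-values and intervals measure the spread between these libraries. The chi-square per degree of freedom between replicates was 2.96 to 9.44, above sampling noise, so no pair was 1 library counted more than once. The script was tested on simulated data. RefSeq supplied promoter and microRNA sequences (GRCh38.p14) and GENCODE v44 the exons.

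The genes and lists were chosen with earlier results of these data known. Named genes were the 8 genes, at most the 3 called genes with the largest change per list and comparison, and the 5 most correlated with INSIG1, of which 1 is not reported here. Alternatives were TMM scaling, ERCC library sizes, no RUVg factor, no count filter, the likelihood ratio test, DESeq2 1.42.0, a replicate block, only the libraries compared, and leaving out each library in turn.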

Additional observations from a re-analysis of the deposited data

Results flagged for a closer look

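The serum effect on INSIG1 differed between the treatments by -0.62 on the log2 scale (SE 0.0885, 95% interval -0.81 to -0.44): 3.50-fold in DMSO-treated and 2.27-fold in dTAG-treated cells. It is listed because the interaction of serum and dTAG passed the threshold in the fit over all genes, and INSIG1 was selected on this same comparison, so the value is a description and no separate support. It ranged from -0.70 to -0.57 when each library was left out in turn and from -0.64 to -0.62 under the other settings.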

How the results depend on the processing

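The counts of called sterol-sensing genes stayed within 1.5 times for both serum comparisons, dTAG without serum and the interaction. For dTAG with serum the count of 1 became 0 with ERCC library sizes, 2 with no count filter, DESeq2 or the replicate block, and 3 with no RUVg factor, the likelihood ratio test or only the libraries compared, and 0 to 2 when each library was left out (0 without DMSO-S30 replicate 3 and without dTAG-S30 replicate 2). The cause was not tested. Of 792 values of single genes under the alternatives, 731 kept their direction and side of the threshold, 36 reversed, 16 passed newly and 9 no longer passed. No reversed value had passed the test. INSIG2 for serum in DMSO-treated cells was 0.041 with TMM, 0.0064 with ERCC sizes and 0.0067 with DESeq2, and MYLIP 0.042, 0.041 and 0.043. ABCA1 for serum in dTAG-treated cells was -0.11 with no count filter and -0.026 with only the libraries compared, which for dTAG without serum also gave MYLIP -0.01028 and SREBF1 -0.000904, while no RUVg factor gave SREBF1 -0.00212. When each library was left out, values for serum in DMSO-treated cells ranged from -0.083 to 0.0193 for INSIG2 and from -0.00841 to 0.10 for SREBF2. For serum in dTAG-treated cells they ranged from -0.18 to 0.00144 (INSIG2), -0.0488 to 0.0829 (SCAP), -0.0487 to 0.0761 (STARD4) and -0.23 to 0.13 (ABCA1). For dTAG without serum they ranged from -0.0472 to 0.0324 (SREBF1), -0.0755 to 0.0101 (SCAP) and -0.0276 to 0.0243 (MYLIP), and for INSIG2 from -0.0433 to 0.10 with dTAG and serum and from -0.14 to 0.0191 in the interaction. The same-numbered libraries of different groups showed no clear shared deviation (r of -0.15 to 0.14 over 18 pairs, 1 of them over 0.1). Of 12 libraries, 5 correlated best with their own number. These values cannot tell whether same-numbered libraries were prepared together, and the main fit took no pairing. The replicate block moved the calls from 171 to 173 for dTAG without serum and from 161 to 167 with serum. Over all genes, calls ranged under the settings from 1766 to 4107 (serum in DMSO-treated cells, 3439 as reported), 1646 to 3983 (serum in dTAG-treated cells, 3203), 76 to 287 (dTAG without serum, 171), 66 to 406 (dTAG with serum, 161) and 3 to 29 (interaction, 5). The share of calls that were higher was 34.95% and 37.2% for serum, but 61.4% and 61.7% with TMM, 58.0% and 59.0% with DESeq2 and 66.5% and 62.5% with ERCC sizes, and 65.5% for dTAG without serum against 80.3% with ERCC sizes, 52.7% with no count filter and 55.7% with only the libraries compared. TMM moved the median of all genes for serum from -0.07 and -0.06 to 0.00. For dTAG, 13 to 16 cholesterol enzymes were called without and 12 to 16 with serum, and 7 to 9 and 6 to 8 fatty acid genes; smaller counts of the other lists for serum moved by more than this. ABCA1, with 13 to 38 counts, and the 3 libraries per group limit the precision.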
